A study of Mus musculus with 6 samples.

Results

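The 10 genes described here encode proteins that osteoclasts use to fuse, to signal and to dissolve bone: the acid hydrolases Ctsk and Acp5, the fusion proteins Dcstamp and Ocstamp, the receptor Oscar, the transcription factor Nfatc1, the proton pump subunits Atp6v0d2 and Tcirg1, and the chloride transport proteins Clcn7 and Ostm1. They were chosen by name for their known roles, with earlier results of these data already known. The shares over all genes printed beside their counts are therefore a description, not a test. They are 10 of the 20659 genes named on the arrays. Probes were assigned to them through the RefSeq accession of each probe, which gave 13 probes, since Acp5, Nfatc1 and Atp6v0d2 have 2 probes each. Osteoclasts arise by fusion of cells of the monocyte and macrophage lineage under the cytokines M-CSF and RANKL, seal off a patch of bone, acidify it with a V-type proton pump and a matching chloride pathway, and digest the matrix with secreted acid hydrolases. Several of these proteins are also made by macrophages, which share the lineage, and the lysosomal ones serve lysosomes in many cells.

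Gene expression was measured on 6 one-color Agilent arrays of calvarial osteoblasts, bone-forming cells taken from the skulls of newborn CD1 mice aged 2-5 days. With 2 arrays for each group, the groups were undifferentiated osteoblasts grown to confluence in medium with serum, differentiated osteoblasts moved at confluence into differentiation medium, and osteoblasts differentiated in the same way with cabozantinib (XL184) added, an inhibitor of the tyrosine kinases VEGFR2 and MET. The labels give 30 days for both of the latter. The cells came from digested calvariae and nothing in the labels or methods describes a step that removed blood-derived cells, and nothing states that the 2 arrays of a group came from separate cultures, so that the p values measure only the spread between these arrays.

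Levels are log2 signals relative to the 75th percentile of each array, so a value of 0 equals that percentile, and levels were compared between arrays for 1 probe and never between probes. Between 58.8% and 72.9% of the spots were flagged by the scanning program as well above background. The 4 arrays without cabozantinib carried 1 scan record and the 2 cabozantinib arrays another, so the scan and the treatment cannot be told apart. A gene was called changed at an adjusted p under 0.05 in limma over 23082 genes, which include transcripts without a gene symbol. Each of the 10 genes passed the filter on dim probes, and all but Clcn7, which was too dim on cabozantinib replicate 2, cleared background on the 6 arrays. Of the 12 osteoblast markers tested, 5 rose with differentiation and 1 fell. The bone proteins Bglap2, which encodes osteocalcin, and Phex rose by 5.05 and 6.37 on the log2 scale, and Spp1 fell by 3.68 (adjusted p = 0.0360, but 0.0629 without the replicate block).

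In differentiated osteoblasts 3 of the 10 osteoclast genes rose: Atp6v0d2, Acp5 and Dcstamp. 0 of the 10 fell. Over all genes tested 4.96% rose and 4.31% fell. The signals of the 2 groups did not overlap for 5 of the 10 genes in the higher direction and for 1 in the lower, against 25% and 19.5% of all genes. The median log2 fold change of the 10 genes was 0.73, beside 0.10 over all genes. Fewer cells of a type and less RNA per cell cannot be told apart in such cultures, here or in any of the comparisons that follow.

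With cabozantinib, compared with differentiated osteoblasts, 0 of the 10 genes rose and 0 fell in limma. Of the 10, 0 had an unadjusted p under 0.05. In simulated arrays this fit called 0 of 65 probes changed by 1 on the log2 scale and 22 of 62 changed by 2. Changes of such size could therefore be missed here. Over all genes 0% rose and 0.00433% fell, which was 1 gene, Iapp, named after its value was seen. This low background depended strongly on the fit. 5379 genes had an unadjusted p under 0.05, and without the replicate number as a block 172 genes rose and 2758 fell. In a fit to the 4 arrays compared 676 rose and 5154 fell, and with the percentile taken over averaged probes, which had been run first, 27 rose and 544 fell. 9 of the 10 genes had a lower mean with cabozantinib, with a median log2 fold change of -0.35, but the median of all genes was itself -0.30 on this scale, and with quantile normalization the median of the 10 genes was -0.15. The 2 groups did not overlap for 1 of the 10 genes in the higher direction and for 5 in the lower, against 13.1% and 45.3% of all genes.

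Against undifferentiated osteoblasts, cabozantinib-treated osteoblasts had 3 of the 10 genes higher, Atp6v0d2, Acp5 and Dcstamp, and 1 lower, Clcn7. Over all genes 4.45% rose and 8.53% fell, which was 1027 and 1968 genes, with a median log2 fold change of -0.38. That balance turned with the scaling: quantile normalization gave 958 higher and 370 lower and the authors' values 961 and 357, and Clcn7 was not called under either. The groups did not overlap for 6 of the 10 genes in the higher direction and for 3 in the lower, against 19.4% and 44.5% of all genes. This comparison shares its undifferentiated arrays with the first and its cabozantinib arrays with the second, so the values stand side by side and are not independent.

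**Figure D1:**
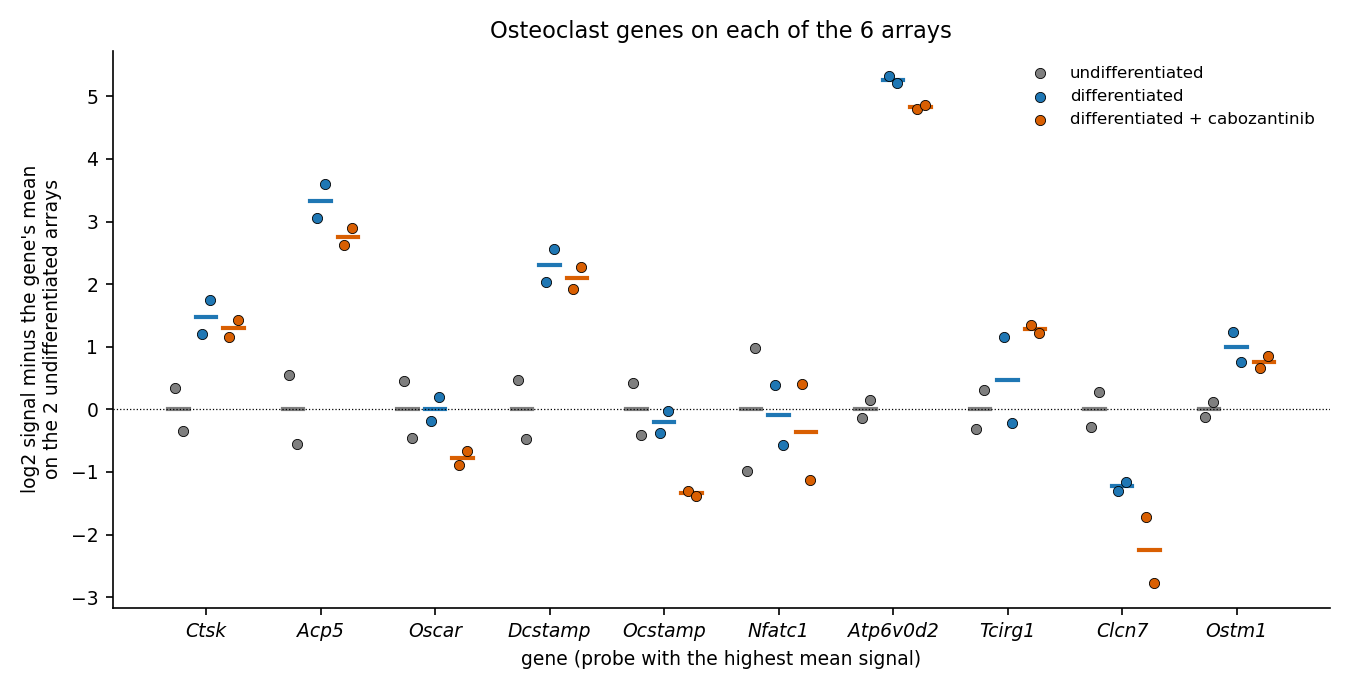
Log2 signal of each of the 10 osteoclast genes on the 6 arrays, as the difference from the gene's mean on the 2 undifferentiated arrays, with points for arrays and short lines for group means. Atp6v0d2, Acp5 and Dcstamp lie above their undifferentiated arrays on all 4 other arrays, while Clcn7 lies below them.

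Ctsk and Acp5 encode the acid hydrolases. Ctsk encodes cathepsin K, the protease that cleaves type I collagen in the resorption pit. Its signal was 5.50 and 4.81 without differentiation, 6.35 and 6.90 after differentiation and 6.31 and 6.58 when cabozantinib was added. The undifferentiated arrays were the lowest and did not overlap with the others, while the differentiated and cabozantinib arrays overlapped. The log2 fold change with differentiation was 1.48 (SE 0.52, 95% interval 0.30 to 2.65, unadjusted p = 0.0194), but the adjusted p of 0.134 did not pass. Without undifferentiated replicate 1 the difference was 2.03 with an adjusted p of 0.0257. With cabozantinib against differentiated it was -0.18 (SE 0.52, 95% interval -1.36 to 0.99, adjusted p = 0.931), and against undifferentiated it was 1.29 (adjusted p = 0.126).

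Acp5 encodes tartrate-resistant acid phosphatase, the enzyme stained to identify osteoclasts, which macrophages can also make. Its brighter probe read 2.32 and 1.23 without differentiation, 4.84 and 5.38 after differentiation and 4.40 and 4.67 when cabozantinib was added. All 4 arrays from differentiation medium exceeded both undifferentiated arrays. Acp5 rose 10.1-fold with differentiation (log2 fold change 3.33, SE 0.56, adjusted p = 0.00572). Its second probe gave 3.28 on the log2 scale. With cabozantinib the log2 difference from differentiated osteoblasts was -0.57 (SE 0.56, 95% interval -1.82 to 0.69, adjusted p = 0.673), and both cabozantinib arrays lay below both differentiated arrays. Against undifferentiated osteoblasts Acp5 was 6.78-fold higher with cabozantinib (log2 fold change 2.76, adjusted p = 0.0160), a call lost without cabozantinib replicate 2, where the difference was 2.49 with an adjusted p of 0.155.

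The RefSeq promoter table (GRCm38.p6) held 6 of the 10 genes, with 11 start sites. Their 250 bases before the start were read for short motifs of factors known to act in osteoclasts, on both strands. CATGTG, the M-box core that Mitf can bind, was in 3 of the 11 windows, and 12.3% of the 32851 windows in the table hold it. The related E-box, CACGTG, was in 1 window against 6.02% of all. GAGGAA, a core bound by PU.1, was in 3 windows against 23.3% of all, GGAAA, the NFAT core, in 6 against 55.6%, and the AP-1 sequence TGANTCA in 0 against 6.75%. A GAGGAA followed by a further A also contains GGAAA. Each match is a description of letters, not a site in use. Shown for 4 of the genes, in the direction of transcription, with matches to the M-box core, the E-box and the PU.1 core on either strand in capitals, are Ctsk and Acp5 for the hydrolases, Oscar for the receptors and Clcn7 as the gene that fell. For Acp5 the start site used is the most downstream of 3, and for Clcn7 it is the more upstream of 2.
Ctsk, chr3:95498960-95499209, plus strand: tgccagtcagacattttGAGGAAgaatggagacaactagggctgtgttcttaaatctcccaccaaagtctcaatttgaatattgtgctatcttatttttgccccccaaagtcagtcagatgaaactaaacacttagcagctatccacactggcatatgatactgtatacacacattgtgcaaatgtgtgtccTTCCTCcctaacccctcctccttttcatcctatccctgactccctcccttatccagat
Acp5, chr9:22130599-22130848, minus strand: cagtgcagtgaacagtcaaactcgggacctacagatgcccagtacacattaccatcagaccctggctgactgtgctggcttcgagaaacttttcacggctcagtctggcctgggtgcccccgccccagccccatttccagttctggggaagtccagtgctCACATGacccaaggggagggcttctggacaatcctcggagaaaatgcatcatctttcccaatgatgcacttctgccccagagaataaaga
Oscar, chr7:3616158-3616407, minus strand: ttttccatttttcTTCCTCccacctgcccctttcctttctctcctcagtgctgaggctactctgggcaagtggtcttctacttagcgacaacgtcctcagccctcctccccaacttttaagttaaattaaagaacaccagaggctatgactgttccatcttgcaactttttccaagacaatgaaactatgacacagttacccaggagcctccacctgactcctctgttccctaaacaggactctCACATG
Clcn7, chr17:25133141-25133390, plus strand: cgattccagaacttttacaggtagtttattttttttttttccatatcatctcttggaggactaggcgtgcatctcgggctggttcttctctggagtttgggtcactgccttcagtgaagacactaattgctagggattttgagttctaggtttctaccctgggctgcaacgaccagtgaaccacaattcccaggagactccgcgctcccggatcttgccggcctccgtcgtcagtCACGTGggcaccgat
The Acp5 and Oscar windows hold CATGTG on the strand opposite to the one shown, at -90 to -85 and at -6 to -1 from the start, the Clcn7 window holds CACGTG at -15 to -10, and the Ctsk window holds GAGGAA at -233 to -228 and, on the opposite strand, at -58 to -53. The Oscar window also holds GAGGAA on the opposite strand, at -237 to -232. Acp5 rose with differentiation while Oscar, with the same CATGTG letters, had a log2 fold change of 0.01. The third window with CATGTG was that of the more downstream Clcn7 start, not shown, at -41 to -36. The windows of the other Acp5 starts held no CATGTG.

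**Figure D2:**
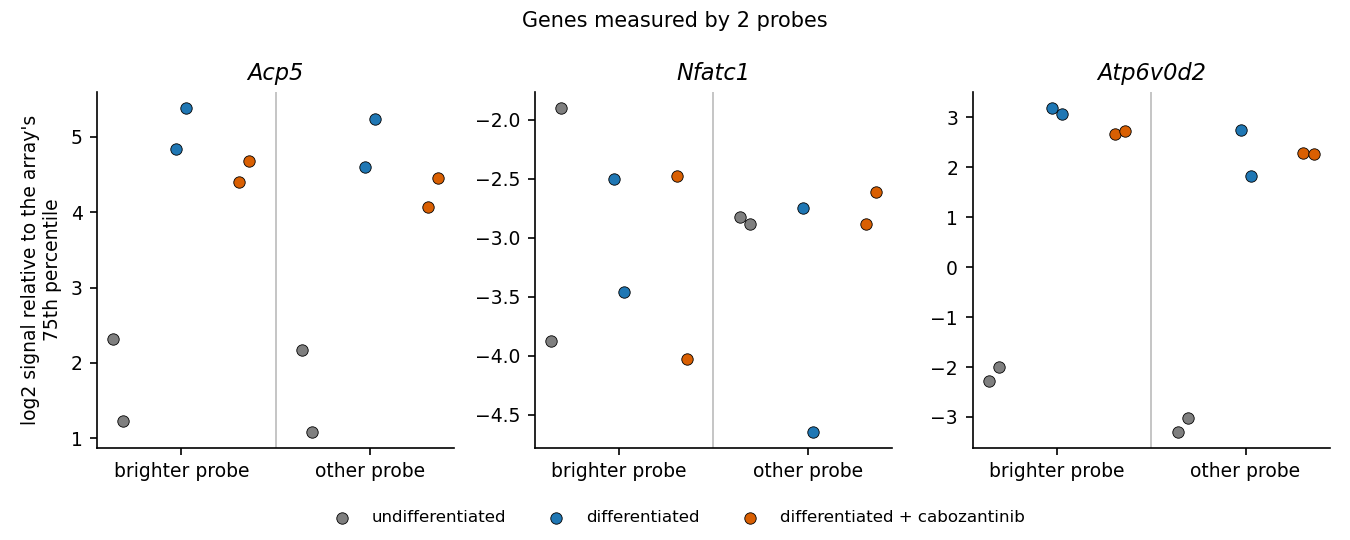
Log2 signal relative to the 75th percentile of each array for the 3 genes with 2 probes, with 1 point per array and a separate axis for each gene. The probes of Acp5 and of Atp6v0d2 give the same order of undifferentiated against the other arrays, while the 2 probes of Nfatc1 give different orders of the arrays and overlapping groups.

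Dcstamp and Ocstamp encode the transmembrane proteins needed for osteoclast precursors to fuse into multinucleated cells. Dcstamp read -2.30 and -3.25 without differentiation, -0.74 and -0.21 after differentiation and -0.85 and -0.49 when cabozantinib was added. All 4 later arrays lay above both undifferentiated arrays, and the differentiated and cabozantinib arrays overlapped. Dcstamp rose 4.92-fold with differentiation (log2 fold change 2.30, SE 0.55, adjusted p = 0.0291). It was not called with normexp background correction or with no filter on dim probes. The call was lost without differentiated replicate 2, where the log2 difference was 1.88 with an adjusted p of 0.313. With cabozantinib the log2 difference from differentiated osteoblasts was -0.20 (SE 0.55, 95% interval -1.43 to 1.03, adjusted p = 0.927). Against undifferentiated osteoblasts it was 2.10 (adjusted p = 0.0372), lost without cabozantinib replicate 1 (2.39, adjusted p = 0.165) and without cabozantinib replicate 2 (1.82, adjusted p = 0.376).

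The other fusion gene, Ocstamp, gave -1.23 and -2.06 without differentiation, -2.02 and -1.67 after differentiation and -2.94 and -3.03 when cabozantinib was added. The first 4 arrays overlapped, and both cabozantinib arrays lay below them. With differentiation the log2 fold change was -0.20 (SE 0.52, 95% interval -1.36 to 0.96, adjusted p = 0.955). With cabozantinib against differentiated it was -1.14, the lowest of the 10 genes (SE 0.52, 95% interval -2.30 to 0.02, adjusted p = 0.224), beside -0.30 for the median of all genes. A fit restricted to the 4 arrays gave an adjusted p of 0.0427, and the adjusted p was 0.0403 without undifferentiated replicate 1 and 0.0327 without undifferentiated replicate 2, arrays that do not enter that difference itself. Against undifferentiated osteoblasts it was -1.34 (adjusted p = 0.112, and 0.0490 without the replicate block).

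Oscar encodes an immunoglobulin-like receptor that gives osteoclast precursors a costimulatory signal, and Nfatc1 the transcription factor that RANKL induces to switch on most of the osteoclast program. Oscar read -1.13 and -2.03 without differentiation, -1.76 and -1.39 after differentiation and -2.47 and -2.24 when cabozantinib was added. The cabozantinib arrays were the lowest pair, and the undifferentiated and differentiated arrays overlapped. The log2 fold change of Oscar was 0.01 with differentiation (SE 0.53, 95% interval -1.19 to 1.20, adjusted p = 0.999). With cabozantinib it was -0.78 against differentiated (SE 0.53, adjusted p = 0.462) and -0.78 against undifferentiated (adjusted p = 0.361, but -1.38 with an adjusted p of 0.0251 without undifferentiated replicate 2).

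The brighter Nfatc1 probe gave -3.87 and -1.90 without differentiation, -2.50 and -3.46 after differentiation and -2.48 and -4.02 when cabozantinib was added. The 3 groups overlapped, and the SD of the undifferentiated pair was 1.39 on the log2 scale. Its log2 fold change with differentiation was -0.09 (SE 0.78, 95% interval -1.84 to 1.66, adjusted p = 0.989). The other probe gave -0.84 for the same comparison (adjusted p = 0.553) and 0.95 with cabozantinib against differentiated, where the brighter probe gave -0.27 (adjusted p = 0.932). The direction of Nfatc1 turned with quantile normalization in all 3 comparisons, and no direction is given for it. Without undifferentiated replicate 1 the brighter probe differed by -1.70 with differentiation (adjusted p = 0.0431) and by -1.97 between cabozantinib and undifferentiated osteoblasts (adjusted p = 0.0391).

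The V-type proton pump carries protons across the ruffled border. Atp6v0d2 encodes its d2 subunit, which is enriched in osteoclasts and is also made by macrophages, and Tcirg1 the a3 subunit. The brighter Atp6v0d2 probe read -2.28 and -1.99 without differentiation, 3.18 and 3.07 after differentiation and 2.66 and 2.73 when cabozantinib was added. The undifferentiated arrays stood far below all the others. Atp6v0d2 rose 38.4-fold with differentiation (log2 fold change 5.26, SE 0.48, adjusted p = 0.000398), the largest change among the 10 genes, and its other probe gave 5.44. With cabozantinib against differentiated the log2 difference was -0.43 at the brighter probe (SE 0.48, 95% interval -1.52 to 0.66, adjusted p = 0.733) and -0.01 at the other. Against undifferentiated it was 4.83 (adjusted p = 0.000872).

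Tcirg1 gave -1.41 and -0.78 without differentiation, 0.07 and -1.31 after differentiation and 0.25 and 0.13 when cabozantinib was added. The cabozantinib arrays were the highest, and the differentiated arrays (SD 0.97) overlapped with the undifferentiated ones. The log2 fold change was 0.47 with differentiation (SE 0.58, 95% interval -0.83 to 1.78, adjusted p = 0.829). With cabozantinib Tcirg1 was the 1 gene of the 10 with a positive difference from differentiated osteoblasts, at 0.81 (SE 0.58, 95% interval -0.50 to 2.11, adjusted p = 0.499), and that difference was -0.0043 without differentiated replicate 2. Against undifferentiated it was 1.28 (adjusted p = 0.165), or 1.97 with an adjusted p of 0.0363 without undifferentiated replicate 2.

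Clcn7 encodes the chloride-proton exchanger that balances the charge moved by the pump, and Ostm1 its partner subunit. Clcn7 read -4.08 and -3.51 without differentiation, -5.09 and -4.95 after differentiation and -5.50 and -6.56 when cabozantinib was added, the last of these not well above background. The 3 groups did not overlap, with the cabozantinib arrays lowest. The log2 fold change was -1.22 with differentiation (SE 0.55, 95% interval -2.47 to 0.02, adjusted p = 0.258) and -1.01 with cabozantinib against differentiated (SE 0.55, adjusted p = 0.325). Against undifferentiated osteoblasts Clcn7 fell by 2.24 on the log2 scale with cabozantinib (SE 0.55, adjusted p = 0.0311). This call was lost with quantile normalization (-1.36, adjusted p = 0.206), without cabozantinib replicate 1 (-2.94, adjusted p = 0.0507) and without cabozantinib replicate 2 (-1.53, adjusted p = 0.481).

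Its partner Ostm1 gave 2.50 and 2.74 without differentiation, 3.85 and 3.38 after differentiation and 3.29 and 3.47 when cabozantinib was added. The undifferentiated arrays were the lowest, and the other 4 overlapped. The log2 fold change was 0.99 with differentiation (SE 0.50, 95% interval -0.12 to 2.11, adjusted p = 0.322), -0.24 with cabozantinib against differentiated (adjusted p = 0.895) and 0.76 against undifferentiated (adjusted p = 0.338).

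**Figure D3:**
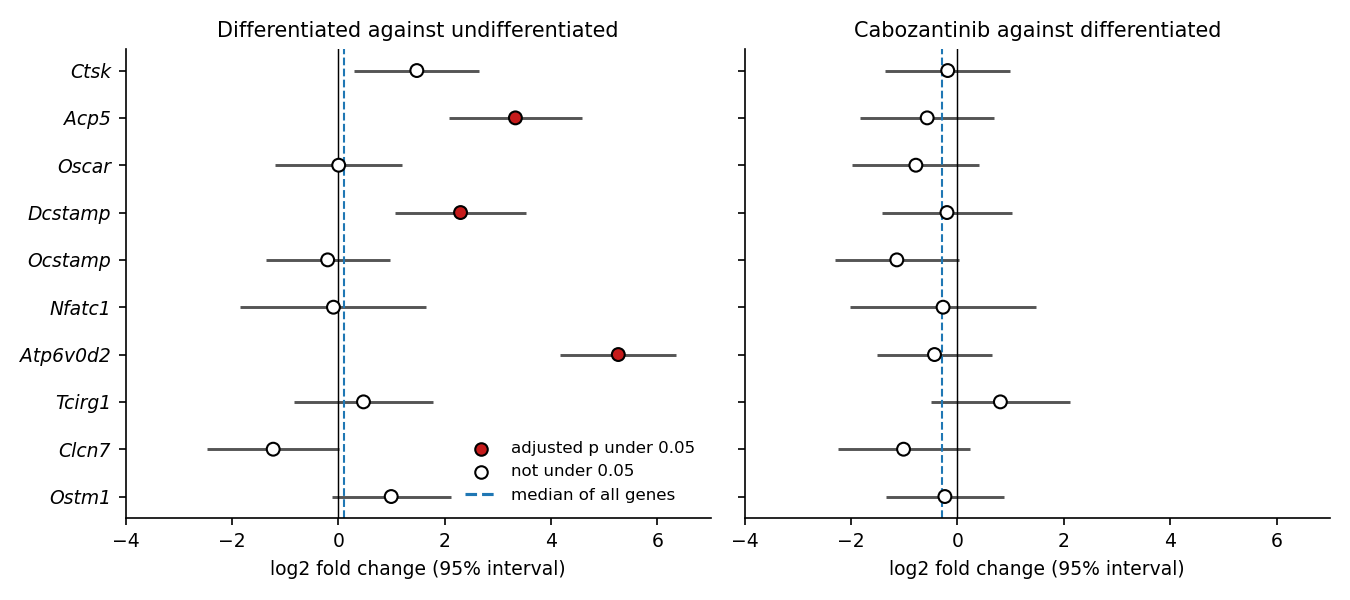
Log2 fold change with its 95% interval for each of the 10 osteoclast genes, differentiated against undifferentiated on the left and cabozantinib against differentiated on the right, with the median of all genes as a dashed line. Filled points mark the 3 genes with an adjusted p under 0.05, all in the left panel, where Atp6v0d2 is the highest at 5.26.

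The other genes of the pathway were read from lists of receptors and signaling proteins, transcription factors, repressors and resorption proteins. Of 12 receptors and signaling genes tested, 6 rose with differentiation and 0 fell, with a median log2 fold change of 1.92. Trem2, a receptor of the macrophage and osteoclast lineage, rose by 3.84 (SE 0.58, adjusted p = 0.00365), and Btk, a kinase below such receptors, by 3.23. Csf1r, the receptor for M-CSF, read 4.90 and 3.42 without differentiation, 6.59 and 7.39 after differentiation and 6.53 and 7.08 when cabozantinib was added. It rose 7.09-fold with differentiation (adjusted p = 0.0216).

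By contrast, Tnfrsf11a, which encodes the RANKL receptor RANK, read -0.85 and -1.67 without differentiation, -1.56 and -0.99 after differentiation and -2.30 and -2.01 when cabozantinib was added. Its log2 fold change with differentiation was -0.01 (SE 0.54, adjusted p = 0.999), and -0.88 with cabozantinib against differentiated (adjusted p = 0.389). Itgb3, the integrin subunit that anchors osteoclasts to bone, had a log2 fold change of 0.12 with differentiation (adjusted p = 0.976), with overlapping groups. Calcr, the calcitonin receptor that marks mature osteoclasts, was not well above background on any of the 6 arrays, and neither was the kinase gene Src.

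Among 6 transcription factors tested, 2 rose with differentiation: Mitf by 2.36 (SE 0.48, adjusted p = 0.0146) and Prdm1 by 2.16 (adjusted p = 0.0366). Irf8, a transcriptional repressor that restrains osteoclast formation and is high in macrophages, rose 8.41-fold (log2 fold change 3.07, SE 0.49, adjusted p = 0.00479), and its log2 difference with cabozantinib against differentiated was 0.07 (adjusted p = 0.975).

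Of 9 other resorption genes tested, 1 rose with differentiation and 0 fell, with a median of 0.44. The gene that rose was Slc9b2, a sodium-proton exchanger of osteoclasts, by 2.62 (adjusted p = 0.0113). Mmp9, the gelatinase that osteoclasts secrete, was well above background on 2 of the 6 arrays, undifferentiated replicate 2 and differentiated replicate 1, and its log2 fold change with differentiation was 0.44 (adjusted p = 0.808). It was not so on either cabozantinib array or on differentiated replicate 2, so no size is given for its lower signal with cabozantinib (adjusted p = 0.0658). Of 4 ligands by which osteoblasts support or block osteoclasts, 0 passed the test with differentiation. Tnfsf11, which encodes RANKL, had a log2 fold change of -1.51 (SE 0.60, adjusted p = 0.183), and Tnfrsf11b, its decoy receptor osteoprotegerin, -0.92 (adjusted p = 0.691). With cabozantinib against differentiated osteoblasts, 0 genes of these lists passed the test, but some did in the other fits. Mmp14, a membrane-bound matrix protease, read -4.16 and -4.89 without differentiation, -3.86 and -4.03 after differentiation and -6.46 and -5.90 when cabozantinib was added. Neither cabozantinib array was well above background, which leaves it at least 3.24-fold lower than on the differentiated arrays (adjusted p = 0.0558, and 0.0261 without the replicate block). Without the block 2 of the 9 resorption genes were called lower, Mmp14 and Mmp9 (adjusted p = 0.0281), and 1 of the 4 ligands higher, Il34, an alternative ligand of the M-CSF receptor (log2 difference 1.52, adjusted p = 0.0458, and 0.116 with the block). In a fit restricted to the 4 arrays, 3 resorption genes were called lower and 1 higher, with 1 receptor or signaling gene and 1 ligand higher. Over all genes these 2 fits called 2758 and 5154 genes lower and 172 and 676 higher.

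Marker lists of other cells were read beside the osteoclast genes. Of 17 macrophage markers tested, 9 rose with differentiation and 0 fell, with a median log2 fold change of 2.78. The level of the list, as its mean over genes, was -0.08 to 0.10 on the undifferentiated arrays, 2.52 to 2.75 on the differentiated arrays and 2.41 to 2.65 on the cabozantinib arrays. C1qc, a complement chain made by tissue macrophages, read -0.15 and -1.13 without differentiation, 6.21 and 6.86 after differentiation and 5.73 and 6.21 when cabozantinib was added, and rose by 7.17 (adjusted p = 0.000304). Marco, a scavenger receptor, rose by 5.36. Of the 17 markers, 15 had a positive log2 fold change and 2 a negative one, and 8 did not pass the test. Those 8 included Lyz2 at -1.29 (adjusted p = 0.573), Timd4 at -0.0049, Fcgr3 at 0.55 and C1qb at 1.37 (adjusted p = 0.152). Among the macrophage markers, Cd163 and C1qa were not well above background on any array, and Cd68 and Clec7a had no named probe.

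Of 10 general leukocyte markers 6 rose and 0 fell, with a median of 2.20 and a mean level of -1.29 to -0.84 on the undifferentiated arrays, 1.03 to 1.04 on the differentiated arrays and 0.54 to 0.73 on the cabozantinib arrays. Vav1 and Itgb2 rose by 2.94 and 2.70. Of 7 dendritic cell markers tested, 1 rose, the integrin gene Itgax, by 7.63 (adjusted p = 0.000217). Of 7 neutrophil markers 4 fell, led by S100a9, which was at least 299-fold lower in differentiated osteoblasts and not well above background there (adjusted p = 0.000193). Between undifferentiated and differentiated osteoblasts, Atp6v0d2, Acp5 and Dcstamp rose, and the medians of the macrophage and leukocyte lists were positive. Osteoclast pathway genes such as Trem2, Csf1r, Mitf and Slc9b2 also rose. By contrast, Tnfrsf11a, Itgb3 and Mmp9 did not pass the test, and Calcr was not well above background. The part of macrophages, of osteoclasts or of the osteoblasts themselves in the change of the 3 genes was not tested.

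Other subunits of the proton pump and general lysosomal genes show how far Atp6v0d2 stood apart from its own complex. Of 16 other V-ATPase subunits and accessory genes tested, 0 rose with differentiation and 3 fell, with a median log2 fold change of -0.68. Atp6v0d1, the d1 counterpart of Atp6v0d2 found in most cells, read 2.12 and 2.60 without differentiation, -1.16 and -0.73 after differentiation and 1.26 and 0.10 when cabozantinib was added, and fell by 3.31 (SE 0.57, adjusted p = 0.00648). Atp6ap1 fell by 4.49 (adjusted p = 0.00675). With cabozantinib against differentiated these 2 genes had log2 differences of 1.63 and 2.40 with adjusted p values over 0.05. The median log2 fold change of 15 general lysosomal genes with differentiation was 0.54.

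**Figure D4:**
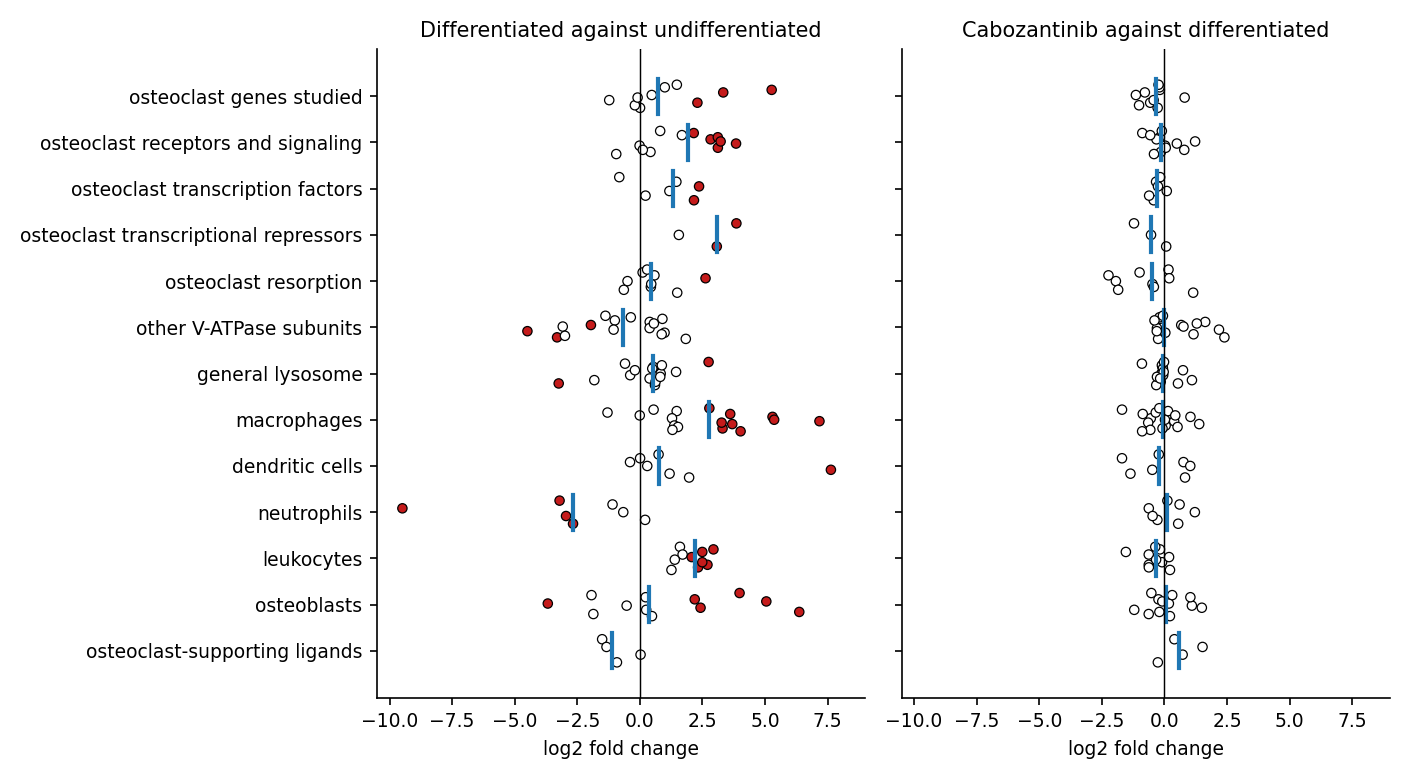
Log2 fold change of each gene tested in the lists, 1 point per gene, filled where the adjusted p was under 0.05, with a vertical bar at each list's median, for differentiated against undifferentiated on the left and cabozantinib against differentiated on the right. The macrophage list has its median at 2.78 in the left panel, and no point is filled in the right panel.

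The genes whose levels over the 6 arrays were most like those of Ctsk and Acp5 were looked up among 16114 named genes, as a description without a test. For Ctsk they were Zfp467, Tjp3, Rinl, Ptgis and Syk, with Pearson correlations of 0.9992 for the first and 0.9987 for the last. For Acp5 they were Tmem191c, Armc3, Mcoln2, Tmprss5 and Cd37, with 0.9997 for the first and 0.9992 for the last. The 6 points of each correlation fall into undifferentiated arrays and the others, and all of these genes share that division. They also share the order of the 2 arrays within each group. In each group the array with the lower 75th percentile of signal read higher. Those percentiles were 678 and 1975 without differentiation, 1213 and 721 after differentiation and 1406 and 1092 with cabozantinib. The cause of this shared order was not tested.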

How the data were processed

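Per the file headers, the deposited scanner intensity values come from Feature Extraction 11.0.1.1, which subtracted background and spatial trends, and were not scaled between arrays. The authors' deposited log2 values, whose normalization is not given in the sources used here, served as an alternative. Log2 signals were averaged over the spots of a probe, without control and outlier spots, less the 75th percentile of the array. An earlier run took this percentile over averaged probes. It was replaced, with its counts known, by the percentile over all non-control spots. The 27229 probes that cleared background on 2 or more arrays entered a fit of the 6 arrays (limma 3.58.1, R 4.3.3), with group and replicate number as terms. The brightest probe stood for a gene, with Benjamini-Hochberg adjustment over 23082 genes. Probes were named through RefSeq accessions (69.1%). The number of arrays limits the precision. Replicate differences correlated at -0.506, -0.527 and 0.265 between groups, so the numbers do not pair the arrays. Mean signals were not in the files, so normexp used median signals. Named genes are the members, fixed pathway genes, the genes most like Ctsk and Acp5, and the 2 highest and 2 lowest called genes of each list. Outside this rule are Iapp, Src, Mmp14, Il34 and the macrophage markers that were not called or not tested. Mmp14 and Il34 were called only in other fits. Members and lists were chosen with earlier results of these data known. The fit was tested on simulated data for cabozantinib against differentiated. It called 0 of 65 probes changed by 1 on the log2 scale, 22 of 62 changed by 2 and 63 of 73 changed by 3. Of 26996 unchanged probes it called 18, a larger share of all its calls than the 0.05 at which the threshold was set. Python 3.11.15, pandas 2.3.3 and matplotlib 3.10.9 were used. Some list genes are not reported here.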

Additional observations from a re-analysis of the deposited data

How the results depend on the processing

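The 20 alternatives gave, for the count of the 10 genes called, 2 to 6 with differentiation apart from the t-tests. The methods' t-test, paired or unpaired, called 0 genes with differentiation and 0 between cabozantinib and undifferentiated osteoblasts after adjustment. Its unadjusted p was under 0.05 with differentiation for 1 gene when paired and 2 when unpaired, against 1292 and 3314 of all 23059 genes. With cabozantinib against differentiated, this held for 0 genes when paired and 2 when unpaired, Atp6v0d2 and Ocstamp. Over all genes it held there for 3715 when paired and 5188 when unpaired. Exchanging the replicate numbers of the undifferentiated arrays in the replicate block gave 6 genes with differentiation, 1 with cabozantinib against differentiated and 7 with cabozantinib against undifferentiated, but this fit also called more of all 23082 genes, with 2978 higher and 2848 lower, 1113 and 5910, and 2611 and 7588 in the 3 comparisons. A fit to the 4 arrays compared gave 1 gene, Ocstamp, with cabozantinib against differentiated. Normexp and no filter on dim probes each gave 2 genes for cabozantinib against undifferentiated. Leaving out 1 array gave 2 to 5, 0 to 1 and 1 to 7 genes in the 3 comparisons. The highest counts came with more calls over all genes: without undifferentiated replicate 1, where 5 of the 10 genes were called with differentiation, 2872 genes rose and 1770 fell of 22844, and 5180 fell with cabozantinib against differentiated, where Ocstamp was called. Without undifferentiated replicate 2, where 7 were called for cabozantinib against undifferentiated, 2027 rose and 7442 fell of 21978. The replicate numbers share only a number, and the fit without the block kept 3 and 0 calls in the first 2 comparisons and gave 5 in the third. Acp5 and Atp6v0d2 were called with differentiation under all 18 alternatives other than the t-tests, and Dcstamp under 15 of them. For Nfatc1 quantile normalization gave 0.0546, 0.17 and 0.23, the authors' values gave 0.0523, 0.18 and 0.23, and the mean of probes gave 0.34 with cabozantinib against differentiated. Ctsk turned to 0.12 with normexp for cabozantinib against differentiated. Without 1 array, values with differentiation ran from -0.34 to 1.28 for Tcirg1, -0.68 to 0.28 for Ocstamp, -0.59 to 0.61 for Oscar and -1.70 to 0.16 for Nfatc1. Those for cabozantinib against differentiated ran from -0.56 to 0.20 for Ctsk, -0.58 to 0.11 for Ostm1, -0.0043 to 1.62 for Tcirg1, -0.61 to 0.22 for Dcstamp and -0.27 to 1.57 for Nfatc1, and against undifferentiated from -1.97 to 0.73 for Nfatc1. The fits without 1 array chose the brightest probe of a gene again. For Nfatc1 the ends at 0.16, 1.57 and 0.73 belong to its other probe. Its ranges therefore join 2 probes and do not show the effect of leaving out an array alone. Taking the percentile over averaged probes and centring on the median gene, both chosen after seeing the data, left the counts of the 10 genes called at 3, 0 and 4. The causes were not tested.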
